A study of Mus musculus with 47 samples.

Results

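The transcripts described here came from 8 mouse genes whose proteins read, write or relay histone acetylation at enhancers and promoters. They were Brd2 and Brd3, Ep300 and Crebbp, Kat2a and Kat2b, Med1 and Cdk9. The members are a set named for the roles of their proteins and were found in the tables by gene symbol, and each symbol matched exactly 1 row in every expression table, 8 of 51912 genes in the tables of bone marrow-derived macrophages (BMDMs). RNA was sequenced from 12 conditions with 1 library each, so no spread between replicates of a condition could be measured and single conditions were compared without a test. The other 35 samples of the series, which profile chromatin, were not used here.

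The 6 BMDM libraries came from C57BL/6 mice, either wild type (WT) or with a conditional deletion of Zmynd8 (cKO), a chromatin reader with a bromodomain. In cKO mice Cre was driven by the myeloid gene Lyz2 and removed floxed exons of Zmynd8, so other lineages kept the gene. The cells had been grown in M-CSF and were left untreated (NT), given 100 ng/ml LPS for 6 h or given 20 ng/ml IL-4 for 6 h. The 6 other libraries were labelled Raw264.7, a mouse macrophage line. A group of 3 carried a Zmynd8 knockout made with a CRISPR guide: the knockout itself (Zmynd8 KO), the knockout given Zmynd8 back (WT Zmynd8) and the knockout given a form whose acidic residues were replaced by alanine (D/E-A). The labels give these 3 no treatment of their own, and the study's text places the RNA of WT Zmynd8 and D/E-A after LPS. The remaining 3 were treated with LPS and carried a knockout of p65, the NF-κB subunit encoded by Rela: the knockout itself (p65 KO), the knockout given p65 back (WT p65) and the knockout given p65 with the acetylated lysine changed to arginine (K122R). The column taken as WT p65 names WT and LPS but not the p65 knockout, and was matched through the sample's title, and every K122R and p65 KO comparison rests on it. For BMDMs the methods state that biological replicates were mixed before sequencing, and they do not describe the Raw264.7 libraries.

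Enhancers that drive inflammatory genes carry acetylated histones. The acetyltransferases p300 (Ep300) and CBP (Crebbp) write most of the mark at enhancers, whereas GCN5 (Kat2a) and PCAF (Kat2b) work in the SAGA and ATAC complexes. BET proteins such as BRD2 and BRD3 bind acetylated histones through paired bromodomains. MED1 is the Mediator subunit through which many transcription factors contact the polymerase machinery, and CDK9 is the kinase of P-TEFb, which releases paused RNA polymerase II. In macrophages this set of proteins is known for switching on genes after LPS.

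Library totals ran from 22597408 to 28386612 counts in BMDMs and from 15127110 to 21042507 reads in the Raw264.7 libraries. In BMDMs, levels are given as CPM, the count scaled to the library total, and reads recovered from the Raw264.7 tables were scaled alike, with exact 95% Poisson limits where stated. These limits and those on fold changes cover counting error only, not variation between cultures or animals. Lyz2, the driver of Cre, fell from 10950 to 7202 CPM in NT, from 6902 to 2892 CPM with LPS and from 8941 to 5245 CPM with IL-4 in the cKO libraries. Zmynd8 itself gave 79.0 to 128 CPM in the WT and 81.5 to 151 CPM in the cKO libraries, and counts over the whole gene do not check the loss of single exons. In the Raw264.7 tables the deposited value of Zmynd8 was 117 in the library labelled Zmynd8 KO against 506 in WT Zmynd8. The former equals 121.46 reads and is 1 of 2 values of 23772 in that column that do not give whole reads, the other being a ribosomal RNA row of very high value. How it arose is not known here, so it was not taken as a check of the knockout label, and the Zmynd8 KO results rest on the label alone. Rela gave 102 CPM in WT p65, 50.6 in p65 KO and 351 in K122R. The p65 KO library was thus lower than its WT partner, and K122R held more Rela transcript than WT p65.

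Markers of other cells set some libraries apart. Of 8 neutrophil markers, 8 were above 1 CPM in the 3 libraries of the Zmynd8 lines, with a summed level of 10353 in WT Zmynd8, 6966 in Zmynd8 KO and 4422 in D/E-A, and all 4 B cell markers were also above 1. The sums were 0.180 to 0.319 in the 3 libraries of the p65 lines, which carry the same cell line label, with 2 or 3 of the 8 markers above 0. Reads on ribosomal RNA rows made up 17.1% of the WT Zmynd8 library, 13.8% of Zmynd8 KO and 8.17% of D/E-A, against 0.228% to 0.636% in the p65 lines. In BMDMs the neutrophil sum was 2.33 to 4.22 CPM in NT and LPS and 382 to 514 CPM with IL-4, where 7 of 8 markers were above 1. All 7 macrophage markers were detected in every library, and 7 were above 1 CPM in BMDMs and the Zmynd8 lines but 6 in the p65 lines. They summed to 6386 to 9639 CPM in BMDMs, 2873 to 4455 CPM in the Zmynd8 lines and 1626 to 1980 in the p65 lines. The markers of the LPS response summed to 4798 to 8622 CPM in the Zmynd8 lines and to 6821 to 8327 in the p65 lines.

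A difference between libraries was called when it was at least 1.2-fold in either direction, on the log2(level + 1) scale, after genes whose mean over the pair was under 10 counts in BMDMs, or under a deposited value of 1 in the Raw264.7 tables, were left out. All 8 members passed this filter in all 11 comparisons.

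Kat2a and Kat2b, which encode interchangeable acetyltransferase subunits of SAGA and ATAC, moved in opposite directions with LPS. Kat2a gave 58.1 CPM in WT NT and 67.3 CPM in cKO NT, 13 CPM in both LPS libraries, and 45.0 and 51.2 CPM with IL-4 in WT and cKO. The LPS libraries were the lowest of the 6, and their limits met none of the others. In bulk RNA, fewer cells of a type and less RNA per cell cannot be told apart. Kat2b gave 20.7 and 14.4 CPM in NT, 67.9 and 81.9 CPM with LPS, and 22.3 and 24.6 CPM with IL-4, in WT and cKO in that order, so for Kat2b the LPS libraries were the highest. The limits of WT NT and WT IL-4 overlapped for Kat2b, as did those of its 2 IL-4 levels. With LPS the log2 change in WT was -2.08 for Kat2a (limits on the read ratio -2.34 to -1.99), to 0.237 of its NT level, and 1.67 for Kat2b (1.58 to 1.86), which is 3.18-fold. In cKO the log2 changes were -2.28 (-2.55 to -2.19) for Kat2a and 2.43 (2.34 to 2.68) for Kat2b.

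The ratio of Kat2b to Kat2a reads within a library does not depend on how libraries are scaled. In BMDMs it was 0.356 (95% limits 0.322 to 0.393) in WT NT and 0.214 (0.189 to 0.241) in cKO NT. It was 5.22 (4.63 to 5.90) and 6.29 (5.57 to 7.12) with LPS, and 0.495 (0.450 to 0.545) and 0.480 (0.436 to 0.528) with IL-4. Kat2b reads thus outnumbered Kat2a reads only in the 2 LPS libraries among the 6, and the limits of WT and cKO did not overlap in NT and overlapped with LPS and with IL-4. In the p65 lines the ratio was under 1, at 0.234 in WT p65, 0.642 in K122R and 0.256 in p65 KO. In the Zmynd8 lines it was 2.69 in WT Zmynd8, 4.20 in Zmynd8 KO and 6.11 in D/E-A, with limits that did not overlap. Libraries carrying the same cell line label therefore fell on both sides of 1.

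**Figure D1:**
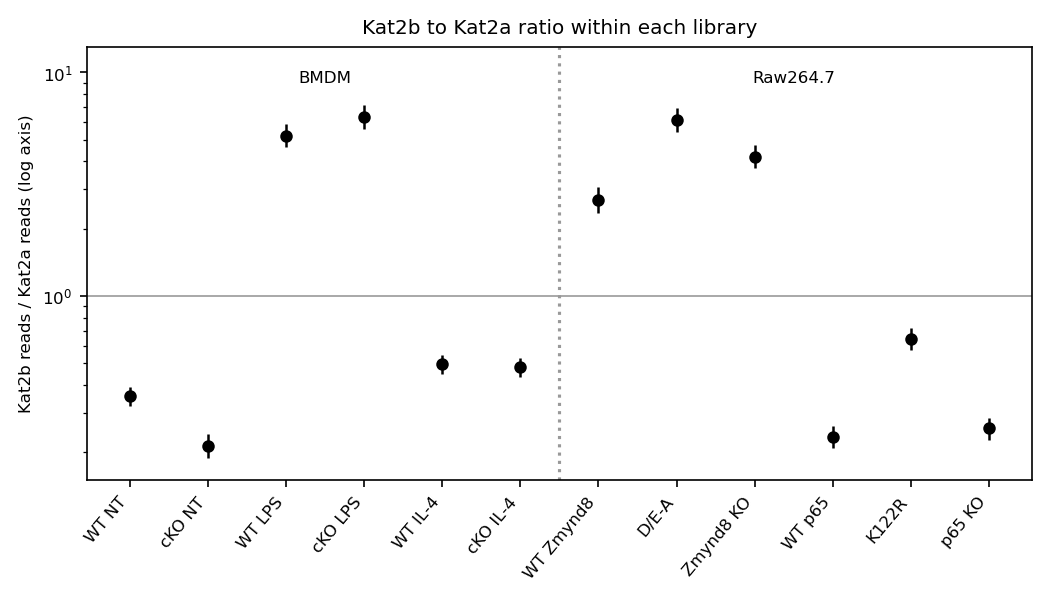
Ratio of Kat2b to Kat2a reads (log axis) in each of the 12 libraries, 6 from BMDMs on the left and 6 labelled Raw264.7 on the right, with bars for exact 95% limits on counting error. The 2 LPS-treated BMDM libraries and the 3 libraries of the Zmynd8 lines lie above 1, between 2.69 and 6.29, and the other 7 libraries lie below 1.

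The upstream sequences of this pair are shown because the genes moved in opposite directions. Both are from RefSeq on GRCm38.p6 and come from windows of 250 bases before a transcript start listed for the gene. Since these windows run into other transcripts of the same gene, the part outside the span of the RefSeq gene is shown. Kat2a in RefSeq lies on the minus strand of chromosome 11 at 100704746 to 100712485, and its stretch, 232 bases, is chr11:100712486-100712717. Kat2b in RefSeq lies on the plus strand of chromosome 17 at 53566774 to 53672721, and its stretch, 53 bases, is chr17:53566721-53566773. Capitals mark TGANTCA, the letters of the AP-1 motif.
Kat2a: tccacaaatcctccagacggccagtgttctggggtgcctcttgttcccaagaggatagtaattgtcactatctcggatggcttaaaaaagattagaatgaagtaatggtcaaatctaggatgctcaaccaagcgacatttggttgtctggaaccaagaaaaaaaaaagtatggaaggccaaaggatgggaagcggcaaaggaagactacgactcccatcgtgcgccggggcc
Kat2b: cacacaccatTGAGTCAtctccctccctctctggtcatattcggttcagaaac

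The AP-1 letters stood at chr17:53566731-53566737 in Kat2b and in none of the other 10 windows of the 8 genes, which had 11 annotated starts. They were found on either strand in 6.75% of 32851 RefSeq windows of the same length. The STAT letters TTCNNNGAA were in 7.02% of all windows and in 1 window of Brd2, and the κB motif was in 3.90% of all windows and in no window of the 8 genes. These matches describe letters in the windows and show no binding.

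Brd2 was the most abundant of the 8 per transcript length in every library. It gave 289 CPM in WT NT, 232 CPM in cKO NT, 588 CPM in WT LPS, 633 CPM in cKO LPS, 353 CPM in WT IL-4 and 345 CPM in cKO IL-4. Both LPS libraries were highest and cKO NT was lowest, and only the 2 IL-4 levels had overlapping limits. LPS raised it by 1.02 on the log2 scale in WT (0.99 to 1.07) and by 1.45 in cKO (1.40 to 1.5). Brd3, its less abundant relative, gave 26.3, 21.8, 10.3, 13.1, 37.0 and 39.1 CPM in the same order of libraries. The LPS libraries were thus the lowest for Brd3, with a log2 change of -1.27 in WT and -0.70 in cKO. Scaled by the deposited TPM, the Brd3 change in cKO was 0.08, so its direction there was not stable. Brd2 reads outnumbered Brd3 reads 11 to 1 in WT NT, 57.2 to 1 in WT LPS and 9.55 to 1 in WT IL-4. Brd2 overlaps H2-DMa on the opposite strand, and the strand setting of the counts is not given in the sources used here.

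Ep300 and Crebbp, the paired enhancer acetyltransferases, were highest with IL-4. Ep300 gave 134 CPM in WT NT, 71.8 CPM in cKO NT, 116 CPM in WT LPS, 155 CPM in cKO LPS, 255 CPM in WT IL-4 and 214 CPM in cKO IL-4. Crebbp gave 35.6, 24.2, 23.1, 31.6, 114 and 99.3 CPM in that order. No 2 levels of Ep300 had overlapping limits, whereas for Crebbp the limits of cKO NT and WT LPS overlapped, as did those of WT NT and cKO LPS. In the IL-4 libraries Crebbp was higher than in NT by 1.65 on the log2 scale in WT (1.57 to 1.78) and by 2.0 in cKO (1.91 to 2.18). Ep300 was higher by 0.92 and 1.56. The IL-4 libraries also sit in a table of another format and held more of the neutrophil markers, and neither can be told apart from the treatment. Transcript length moved with IL-4 too, with median changes from 0.10 under 2 kb to 0.39 over 8 kb in WT and from -0.16 to 0.86 in cKO. After the median of genes of like length was subtracted, the changes in WT and cKO were 1.18 and 1.03 for Crebbp and 0.56 and 0.73 for Ep300. The ratio of Ep300 to Crebbp reads was 3.75 in WT NT, 5.01 in WT LPS and 2.24 in WT IL-4, and its limits did not overlap among these 3.

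On the CPM scale, LPS moved the 2 genes differently in WT and cKO. In WT, Ep300 changed by -0.21 and Crebbp by -0.60 on the log2 scale, whereas in cKO they changed by 1.10 and 0.37. Med1, the Mediator contact subunit, did likewise. It gave 55.8 and 28.8 CPM in NT, 38.0 and 45.2 CPM with LPS and 74.6 and 83.7 CPM with IL-4, in WT and cKO. Its log2 change with LPS was -0.54 in WT (-0.67 to -0.43) and 0.63 in cKO (0.51 to 0.79). With IL-4 it was 0.41 and 1.51, and 0.14 and 0.84 after centring on length. In WT it did not pass the fold after centring, nor by the median ratio (0.25) or TMM (0.24). By the median ratio the WT values were 0.50 for Ep300, 0.08 for Crebbp and 0.15 for Med1, and the cKO values 1.76, 1.01 and 1.28, so the signs were opposite only under some scalings. Length trends with LPS ran opposite ways, with medians from -0.39 under 2 kb to -0.83 over 8 kb in WT. In cKO they ran from -0.79 to -0.08. After centring on length the LPS values in WT and cKO were 0.74 and 1.31 for Ep300. They were 0.17 and 0.35 for Crebbp and 0.35 and 0.86 for Med1, none of them below 0. The difference between genotypes was not tested, and the NT level of each of these 3 genes was lower in cKO than in WT.

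Cdk9, the P-TEFb kinase, lay between 93.8 and 108 CPM outside LPS. It gave 101 CPM in WT NT, 108 CPM in cKO NT, 96.6 CPM in WT IL-4 and 93.8 CPM in cKO IL-4, with 54.7 and 54.1 CPM in the LPS libraries of WT and cKO. With LPS its log2 change was -0.88 in WT and -0.99 in cKO, ratios to NT of 0.543 and 0.504 with 1 added to each level.

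**Figure D2:**
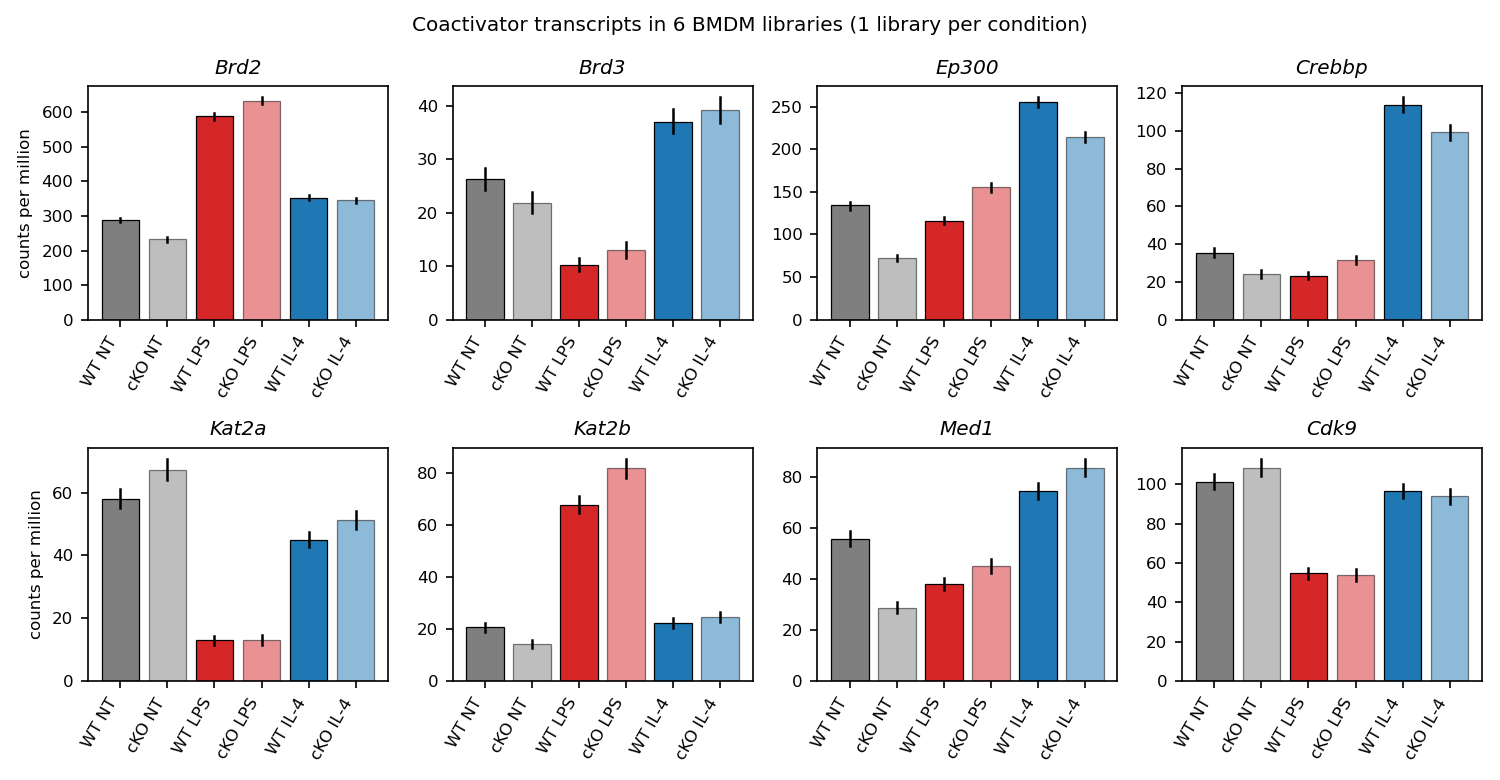
Level of each of the 8 transcripts in the 6 BMDM libraries in CPM, 1 bar per library (grey NT, red LPS, blue IL-4, pale bars cKO), with lines for exact 95% Poisson limits on counting error. Brd2 and Kat2b are highest and Kat2a, Brd3 and Cdk9 lowest in the LPS libraries, and Ep300, Crebbp, Brd3 and Med1 are highest in the IL-4 libraries.

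By call, LPS raised 2 and lowered 5 of the 8 in WT, and raised 5 and lowered 3 in cKO. Of all tested genes 84.8% were called in WT (21.7% higher and 63% lower) and 85.5% in cKO (25.0% higher and 60.5% lower), so the number called says nothing particular about the members. The median of all tested genes fell by 0.58 in WT and by 0.55 in cKO on the log2 scale, and that of the 8 members was -0.57 and 0.50. When libraries were scaled by the median ratio of all tested genes, 39.4% of genes were higher and 38.9% lower in WT, and 40.9% and 39.9% in cKO. On that scale the WT changes were 2.35 for Kat2b, 1.73 for Brd2, 0.50 for Ep300, 0.15 for Med1, 0.08 for Crebbp, -0.18 for Cdk9, -0.61 for Brd3 and -1.40 for Kat2a. On that scale Kat2b, Brd2 and Ep300 passed the fold as higher and Kat2a and Brd3 as lower. Ep300, Crebbp and Med1 changed sign from the CPM scale, and of these only Ep300 passed the fold. Cdk9 did not pass it. In cKO, 5 were higher and 2 lower on that scale.

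IL-4 raised 5 and lowered 1 of the 8 in WT, and raised 6 and lowered 1 in cKO. Of all tested genes 64.4% were called in WT and 70.9% in cKO, with 41.3% and 44.7% higher and 23.1% and 26.2% lower. Kat2a was the member that was lower, by 0.36 in WT and 0.39 in cKO on the log2 scale. In cKO it was at -0.14 by the deposited TPM and did not pass the fold, whereas by the median ratio, TMM or centring on length Cdk9 was also called lower there, at -0.39, -0.43 and -0.43. The IL-4 libraries sit in a table of another format: of 13090 tested genes, 20.9% had the same gene length in the NT table, against all 13090 between the NT and LPS tables. The treatment and the table therefore cannot be told apart, and the neutrophil markers given above moved with both. Scaled by the median ratio, the split of all genes in WT was 31.6% higher and 31.0% lower, and 3 members were higher and 1 lower. In cKO 63.1% of called genes were higher, and 76.6% by the deposited TPM. That share was 51.5% by the median ratio, 48.8% by TMM and 50.7% after centring on length.

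Between genotypes, the 8 transcripts were mostly lower in cKO without treatment, partly higher with LPS and nearly level with IL-4. In NT, 5 were lower and 0 higher, against 29.0% and 25.0% of all tested genes (54.0% in all). Med1 was lower by 0.93 on the log2 scale (-1.09 to -0.82), Ep300 by 0.89, Crebbp by 0.54, Kat2b by 0.50 and Brd2 by 0.32. With LPS, 4 were higher and 0 lower, against 22.6% and 13.3% of all genes (35.9% in all). These were Crebbp at 0.44 (0.29 to 0.61), Ep300 at 0.42 (0.35 to 0.49), Brd3 at 0.32 (0.10 to 0.59) and Kat2b at 0.27 (0.17 to 0.36). By the median ratio or TMM Kat2b was at 0.23 and did not pass the fold. With IL-4, 0 of 8 passed the fold, against 30.7% of all genes (17.3% higher and 13.4% lower). By the deposited TPM Ep300 at -0.44 and Crebbp at -0.31 passed it as lower, where 15.7% of all genes were lower. The share of higher calls among all called genes moved with scaling, from 46.3% to 22.0% in NT and from 62.8% to 72.8% with LPS when the deposited TPM was used. The changes with IL-4 ran from -0.25 for Ep300 to 0.18 for Kat2a. Kat2a and Cdk9 passed the fold in none of the 3 comparisons, with changes from 0.00 to 0.21 for Kat2a and from -0.04 to 0.09 for Cdk9. Since 1 NT library of each genotype enters both the genotype and the treatment comparisons, these values share their controls.

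**Figure D3:**
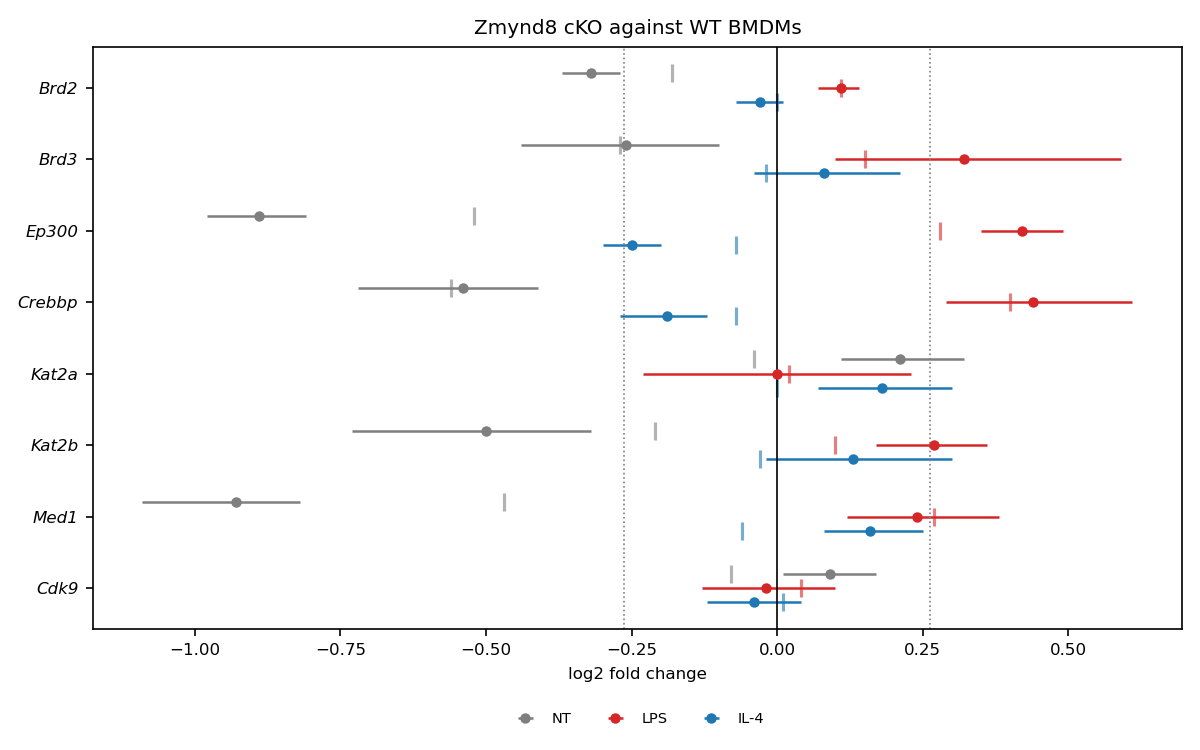
Log2 fold change of cKO against WT for the 8 transcripts in NT (grey), LPS (red) and IL-4 (blue) BMDMs. Points are the values with bars for exact 95% limits on counting error, short upright ticks give the median of all tested genes of like transcript length, and dotted lines mark a 1.2-fold difference. In NT the points of Med1 and Ep300 lie farthest to the left, at -0.93 and -0.89.

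Transcript length moved with the genotype comparison. Across the 12463 genes tested in NT, Spearman's rho between the log2 fold change and transcript length was -0.52. Median changes ran from 0.30 for 3014 genes under 2 kb to -0.53 for 586 genes over 8 kb. With LPS the trend ran the other way, from -0.09 to 0.33 (rho 0.34), and with IL-4 it ran from 0.05 to -0.07 (rho -0.12). These values are across genes, which share the same libraries and are not independent replicates. Lengths are those of the IL-4 table, used for all 3 comparisons because the NT and LPS tables list under 0.5 kb for 7 of the 8 members. Ep300 (9.57 kb), Crebbp (10.8 kb) and Med1 (8.02 kb) are among the longest transcripts and Kat2a (3.27 kb) and Cdk9 (3.56 kb) the shortest of the 8. After the median of genes of like length was subtracted, Crebbp differed by 0.02 in NT and by 0.04 with LPS. Med1 was still lower by 0.46, Ep300 by 0.37 and Kat2b by 0.29 in NT. Brd2 at -0.14 no longer passed the fold in NT, and 0 of 8 passed the fold with LPS. Of all genes 20.4% were higher and 22.2% lower in NT after centring, and 16.0% and 14.9% with LPS. This centring was chosen after the data were seen.

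**Figure D4:**
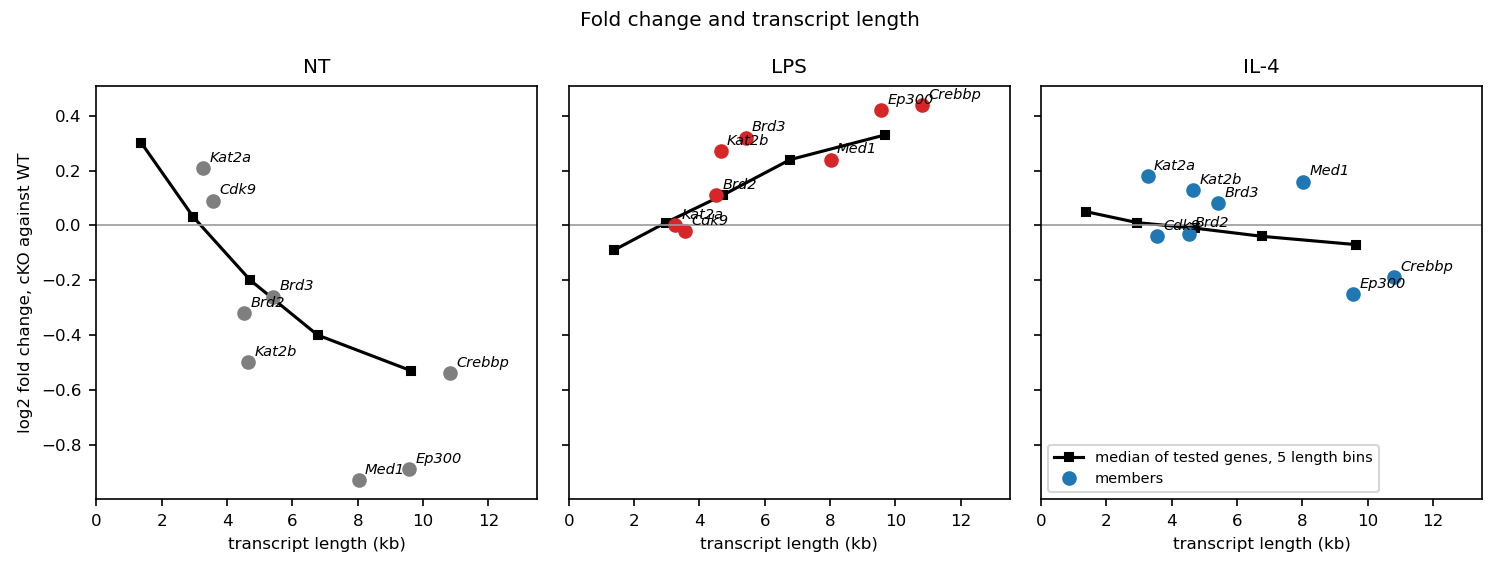
Log2 fold change of cKO against WT (y axis) by transcript length in kb (x axis) in NT, LPS and IL-4 BMDMs. Black squares are the medians of all tested genes in 5 length bins and coloured points the 8 members. In NT the bin medians fall from 0.30 to -0.53 and with LPS they rise from -0.09 to 0.33, and Crebbp lies close to the line in both.

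In the Zmynd8 lines, Ep300, Kat2b and Brd2 were higher and Brd3 was lower in both D/E-A and Zmynd8 KO than in WT Zmynd8. The deposited values, read counts divided by a library factor, compare only within a table. D/E-A against WT Zmynd8 gave 3163 and 1267 for Ep300, a log2 change of 1.32 (1.23 to 1.41), and 2007 and 831 for Kat2b, a change of 1.27 (1.15 to 1.39). Brd3 gave 441 and 781, a change of -0.82 (-1.0 to -0.65). Med1 and Brd2 were higher by 0.46 and 0.45, and Cdk9 was lower by 0.26. Thus 4 members were higher and 2 lower, against 36.7% and 35.9% of all tested genes (72.6% in all). Crebbp at 0.23 and Kat2a at 0.09 did not pass the fold.

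Zmynd8 KO against WT Zmynd8 gave 1485 and 887 for Kat2b, a log2 change of 0.74 (0.62 to 0.87), and 2042 and 1352 for Ep300, a change of 0.59 (0.49 to 0.69). Brd3 gave 496 and 833, a change of -0.75 (-0.91 to -0.59), and Crebbp gave 894 and 1164, a change of -0.38. Brd2 was higher by 0.30. In all, 3 members were higher and 2 lower, against 33.8% and 36.5% of all tested genes (70.3% in all), and Med1, Cdk9 and Kat2a lay between 0.00 and 0.10. These shares include genes down to a mean value of 1, whereas Kat2a, the lowest member in WT Zmynd8, had a value of 330. Both comparisons share the WT Zmynd8 library. Neutrophil markers and ribosomal RNA reads were highest and macrophage markers lowest in that library of the 3, and their part in these differences was not tested. Lengths moved here too, with median changes from -0.52 under 2 kb to 0.42 over 8 kb in D/E-A, and after centring on length Kat2b was still higher by 0.95 and Ep300 by 0.81, whereas Med1 was at 0.04 and Brd2 at 0.10. Brd2 in Zmynd8 KO was at 0.09 after centring and at 0.23 by library totals, and passed the fold under neither.

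In the p65 lines, 5 of 8 members passed the fold in K122R, with the largest change in Kat2a, and 4 of 8 in p65 KO. The deposited values were 821 in K122R and 1553 in WT p65 for Kat2a, a log2 change of -0.92 (-1.04 to -0.80). Med1, at 2295 and 3407, was lower by 0.57 (-0.65 to -0.49). Kat2b was higher by 0.54 (0.34 to 0.73), Cdk9 by 0.41 (0.30 to 0.52) and Brd2 by 0.28 (0.23 to 0.33), giving 3 higher and 2 lower against 30.8% and 32.5% of all genes (63.3% in all). Among called genes 48.6% were higher, and 37.0% when libraries were scaled by their totals. On that scale Brd2 was at 0.14 and did not pass the fold. The p65 KO library held 1535 against 1556 for Kat2a, a change of -0.02 (-0.12 to 0.08). In that library Cdk9 was higher by 0.35, and Ep300, Med1 and Crebbp were lower by 0.41, 0.35 and 0.31, so 1 was higher and 3 lower against 26.3% and 25.7% of all genes (51.9% in all). After centring on length Crebbp was at -0.16 and Med1 at -0.26, and neither passed the fold. The shares of all genes given for both libraries include genes down to a mean value of 1. The lowest member in WT p65, Kat2b, had a value of 363, so these shares are not a like base for the members. Cdk9 was thus higher in both libraries than in WT p65, which both share, and the lower Kat2a was seen in K122R and not in p65 KO. Rela stood at 351 CPM in K122R, 102 in WT p65 and 50.6 in p65 KO. K122R therefore differed from WT p65 in Rela level as well as in the lysine, and p65 KO kept Rela transcript. The part of each in the Kat2a difference was not tested.

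**Figure D5:**
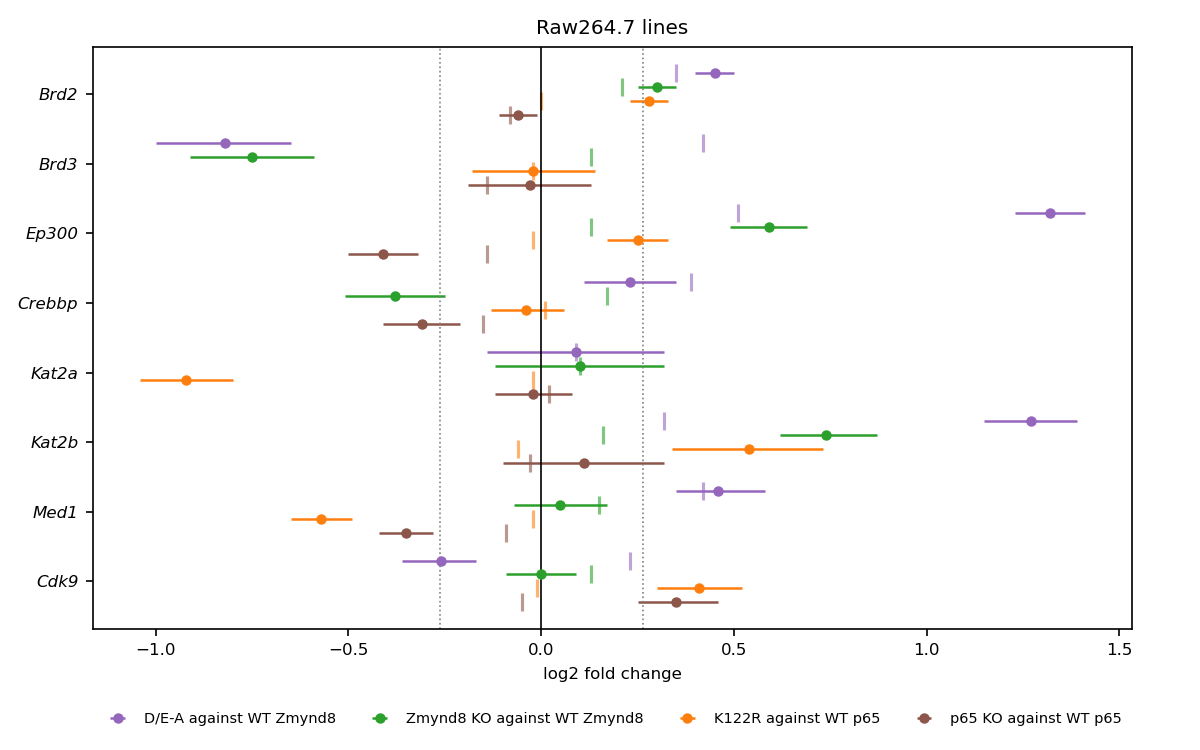
Log2 fold change of the 8 transcripts in 4 comparisons of lines labelled Raw264.7, D/E-A (violet) and Zmynd8 KO (green) against WT Zmynd8, and K122R (orange) and p65 KO (brown) against WT p65. Points carry bars for exact 95% limits on counting error, short upright ticks are medians of tested genes of like length, and dotted lines mark a 1.2-fold difference. Ep300 and Kat2b of D/E-A lie farthest to the right, at 1.32 and 1.27, and Kat2a of K122R lies farthest to the left, at -0.92.

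Per transcript length, by the deposited TPM, the order in WT NT was Brd2 at 141, Cdk9 at 106, Kat2a at 29.0, Ep300 at 25.6, Med1 at 13.9, Brd3 at 7.68, Kat2b at 6.93 and Crebbp at 4.71 TPM. With LPS in WT it was Brd2 at 273, Cdk9 at 55.3, Ep300 at 22.6, Kat2b at 20.9, Med1 at 11.4, Kat2a at 6.20, Brd3 at 3.33 and Crebbp at 2.93 TPM. Kat2a fell from the third to the sixth place and Kat2b rose from the seventh to the fourth. With IL-4 in WT, Ep300 at 57.4 TPM followed Brd2 at 165 and Cdk9 at 100, and Crebbp at 17.5 TPM stood above Kat2b at 7.91. No spread between replicates is at hand to say which neighbours in these orders differ.

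The partners of the 8 proteins were followed in 5 lists of 117 genes in all. In cKO against WT NT, 47 of 114 tested were lower and 19 higher, with a median log2 change of -0.08, and with LPS 34 of 116 were higher and 4 lower. With IL-4 the counts were 12 higher and 10 lower of 114. The shares called were 57.9%, 32.8% and 19.3%, against 54.0%, 35.9% and 30.7% of all tested genes. By direction, 29.0% of all genes were lower and 25.0% higher in NT, 13.3% were lower and 22.6% higher with LPS, and 13.4% were lower and 17.3% higher with IL-4. Among the other bromodomain proteins, 18 of 24 were lower in cKO NT (29.0% of all genes were), with a median of -0.55 against -0.01 for all genes. They included Atad2b at -1.25, Phip and Sp100 at -1.11 and Baz2b at -1.01. With LPS 11 of 25 were higher (22.6% of all genes were), such as Phip at 0.88, Trim33 at 0.73 and Pbrm1, a subunit of a chromatin remodeller, at 0.68. After centring on length the median of this list was -0.20 in NT and 0.07 with LPS.

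Among the other acetyltransferases and their coactivators, 7 of 12 were lower in cKO NT (29.0% of all genes were), including Kat6a at -1.21, Taf1 at -1.06 and the nuclear receptor coactivators Ncoa3 at -0.92 and Ncoa2 at -0.91. Their median was -0.52, and -0.08 after centring. Hat1, which acetylates newly made histones, rose with LPS from 40.1 to 213 CPM in WT (log2 change 2.38) and from 43.9 to 219 CPM in cKO (2.29). The 23 partners of Kat2a and Kat2b in SAGA and ATAC included 18 that were lower with LPS in WT and 1 that was higher, where 63% and 21.7% of all genes were, with a median of -0.84 against -0.58 for all genes. Scaled by the median ratio the median of this list was -0.15. The lowest values were those of Wdr5 at -2.30, Yeats2 at -2.24, Tada2a at -1.95 and Taf5l at -1.84. The pseudocount shrinks low genes most, and Tada2a stood at 1.08 CPM against 7.06. In D/E-A, 10 of the 12 genes listed as other acetyltransferases or their coactivators were higher (36.7% of all genes were). The median of these 12 was 0.70 against 0.02 for all genes, and 0.34 after centring on length. The largest changes on this list were those of Cdyl at 1.12 and Kat6a at 1.08.

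Of 32 other Mediator subunits, 8 were higher and 5 lower in cKO NT (25.0% and 29.0% of all genes were), with a median of 0.03, and of 0.07 after centring on length. The largest changes were in Med13l at -1.09, Med13 at -0.84, Med14 at -0.67 and Med29 at 0.62, beside Med1 at -0.93. Med13, a subunit of the Mediator kinase module, rose with LPS from 82.1 to 203 CPM in WT and from 45.4 to 280 CPM in cKO, log2 changes of 1.30 and 2.60. In K122R 6 were higher and 6 lower (30.8% and 32.5% of all genes were), whereas Med1 was lower by 0.57. Of 23 P-TEFb partners and elongation factors tested in cKO NT, 10 were lower and 4 higher (29.0% and 25.0% of all genes were), with a median of -0.07, and of -0.01 after centring on length. The lower ones included Aff1, a scaffold of the super elongation complex, at -1.02, Ccnt2, a cyclin partner of CDK9, at -0.87 and Aff4 at -0.80, whereas Cdk9 was at 0.09. With IL-4 Aff1 rose from 137 to 384 CPM in WT and from 66.6 to 366 CPM in cKO, log2 changes of 1.48 and 2.44. The table format changed with IL-4 too and cannot be told apart from it. Aff1 was also higher by 1.07 in K122R. In p65 KO against WT p65, 25 of 116 genes of the 5 lists were lower and 4 higher (25.0% called, against 51.9% of all genes). With the exact binomial test added to the fold the order turned, with 17.2% of the lists called against 13.6% of all genes. That test drops genes of few reads first, and the filter kept genes down to a value of 1. The turn can therefore follow from read number and is no result about the lists.

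Over the 6 BMDM libraries, the pattern of log2(CPM + 1) most like that of Kat2b was found in Dnajc7 and Map4, and that most like Kat2a in Wdr77 and Rsl1d1, among 9932 genes compared, with Pearson's r of 0.9989 to 0.9997. Kat2a and Kat2b correlated at -0.99, Kat2a and Cdk9 at 1.00, Kat2b and Brd2 at 0.99, and Ep300 at 0.88 with Crebbp and 0.93 with Med1. Brd2 was most like Smarca4 and Bcl9, Brd3 like Usp45 and Spice1, Ep300 like Rab8b and Spen, Crebbp like Bmp2k and Ciz1, Med1 like 2610005L07Rik and Zbtb34, and Cdk9 like Lta4h and Decr1. With 6 points of which 2 are LPS libraries these are descriptions only.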

How the data were processed

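RNA of 12 conditions was sequenced, 1 library each. For BMDMs the study's methods state libraries from polyadenylated RNA and alignment to the mm10 transcriptome with TopHat; the counter is not given in the sources used here. The BMDM tables hold estimated counts and TPM per gene as deposited by the authors, with gene-level values that need not be whole. The Raw264.7 tables hold a normalized signal deposited by the authors, read counts divided by a factor per library, and how they were made is not given in the sources used here. Whole reads could be recovered from 99.9916% to 100% of its values (tolerance 0.01 reads). Columns of the authors' own fold changes and p-values were not used, nor were 2 per-sample value columns that matched no label.

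Estimated counts were rounded and divided by library totals (CPM). Differences were log2 ratios with a pseudocount of 1, called at 1.2-fold, after removal of genes averaging under 10 counts (BMDMs) or under a value of 1 (Raw264.7). Limits were exact (Clopper-Pearson on reads of a pair of libraries, Poisson on levels, 95%) and cover counting error only. An exact binomial test with Benjamini-Hochberg adjustment at 0.05, which compares libraries and not conditions, was an alternative, as were a pseudocount of 0.1, the median ratio, TMM (edgeR 4.0.16), the deposited TPM, library totals, a fold of 1.5, no filter on low values and, chosen after seeing the data, centring on the median of 50 length bins. The comparison code was tested on simulated data. Nothing says that libraries of 1 condition were repeated, so no spread between samples entered.

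The text names the 8 members, up to 4 genes per list and comparison with the largest change past the fold and a mean of at least 100 counts or a value of 10, and the 2 genes most correlated with each member. Members and lists were chosen with earlier results of these data known. Python 3.11.15, numpy 2.4.6, pandas 2.3.3, scipy 1.17.1, matplotlib 3.10.9 and R 4.3.3 were used.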

Additional observations from a re-analysis of the deposited data

Results flagged for a closer look

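In 5 cases a member passed the fold in opposite directions under the same contrast in 2 settings. None of these differences could be tested with 1 library per condition. Ep300 changed by -0.89 on the log2 scale in cKO against WT without treatment and by 0.42 with LPS, a difference of 1.31. Crebbp changed by -0.54 and 0.44 in the same contrasts, a difference of 0.98. Kat2b changed by -0.50 and 0.27, a difference of 0.76, and its value with LPS was 0.23, not past the fold, by the median ratio or TMM. With LPS against NT, Med1 changed by -0.54 in WT and by 0.63 in cKO, a difference of 1.17. Crebbp changed by -0.60 in WT and by 0.37 in cKO, which is the same difference of 0.98 between the same 4 libraries, so the 5 cases hold 4 separate differences. By the median ratio the LPS values were 0.15 and 1.28 for Med1 and 0.08 and 1.01 for Crebbp, no longer opposite in sign. After centring on transcript length, chosen after the data were seen, none of the 5 passed the fold in opposite directions, with -0.37 and 0.14 for Ep300, 0.02 and 0.04 for Crebbp and -0.29 and 0.16 for Kat2b in cKO against WT, and 0.35 and 0.86 for Med1 and 0.17 and 0.35 for Crebbp with LPS. All 5 rest on the same 4 libraries, and the median change of long transcripts moved in the same directions in the cKO against WT contrasts, from -0.53 in NT to 0.33 with LPS for genes over 8 kb.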

How the results depend on the processing

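No paired analysis was possible because each condition had 1 library and no replicate numbers to match, and for the same reason no replicate could be left out. A fit of genotype across the 3 treatments, which would take treatments as repeats, was not run. With a pseudocount of 0.1, all 88 member values moved by less than their limits. A change of scaling moved more, with 32 of 88 values beyond their limits and 1 more turned in direction under TMM, 30 and 2 under the median ratio, 55 and 3 after centring on length, 34 and 1 of the BMDM values under the deposited TPM, and 7 and 0 of the Raw264.7 values under library totals. Among values past the fold, directions turned for Crebbp in cKO against WT NT (0.02 after centring on length) and in LPS against NT in WT (0.08 by the median ratio and 0.17 after centring). They also turned for Med1 in LPS against NT in WT (0.15 by the median ratio, 0.03 by TMM and 0.35 after centring) and for Brd3 in LPS against NT in cKO (0.08 by the deposited TPM). Ep300 in LPS against NT in WT, at -0.21 and not past the fold, turned to 0.50 by the median ratio, 0.37 by TMM and 0.74 after centring and passed it there. The number of members called after centring on length was 3 in place of 5 for cKO against WT in NT, 0 in place of 4 with LPS, 3 in place of 6 for IL-4 against NT in WT and 2 in place of 4 in p65 KO, where Crebbp and Med1 lost the call. Of all genes 20.4% were then higher and 22.2% lower in NT, 16.0% and 14.9% with LPS, 30.5% and 31.0% for IL-4 against NT in WT and 24.1% and 21.1% in p65 KO. By the deposited TPM it was 2 in place of 0 for cKO against WT with IL-4, where 17.0% of all genes were higher and 15.7% lower. These were Ep300 and Crebbp, both lower. At a fold of 1.5 the members called were 2 for cKO against WT in NT, 0 with LPS, 2 for IL-4 against NT in WT, 3 in D/E-A, 3 in Zmynd8 KO, 1 in K122R and 0 in p65 KO, as a stricter fold calls fewer. Of all genes 17.9%, 6.67%, 33.7%, 43.4%, 42.8%, 35.9% and 27.8% passed it, in that order. The causes of the other shifts were not tested. The fewest reads behind a member's value were 256, for Brd3 in WT LPS, and Kat2a had 305 to 369 in the LPS libraries of BMDMs and the Zmynd8 lines. Adding the exact binomial test to the fold cut the genes called among all tested. They fell from 14978 to 7034 in Zmynd8 KO, from 12453 to 5353 in K122R and from 10325 to 2706 in p65 KO. The lower values are 33.0%, 27.2% and 13.6% of those tested. The number of members called stayed at 5, 5 and 4. The members had at least 316 reads in these libraries, whereas the filter kept genes down to a value of 1. The contrast can therefore follow from read number and says nothing particular about the members.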
